A study of Mus musculus with 10 samples.

Results

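The genes described here are 8 genes of the muscle acetylcholine receptor (AChR) and of the postsynaptic machinery that clusters it: Chrna1, Chrnb1, Chrnd, Chrng, Musk, Dok7, Rapsn and Lrp4. They were taken by name, as receptor subunits and muscle-side proteins that respond to agrin, with no threshold on a measured value. All 8 were among the 24608 gene symbols of the count table, and 6 of them were among the 7753 genes with enough counts to test. They were measured in muscle satellite cells (MuSCs), the stem cells of skeletal muscle, sorted from muscle 3 days after injury by cardiotoxin (CTX), a snake toxin that destroys myofibers and starts regeneration. The 5 control libraries came from Trpm7 +/+; Pax7 CreERT2/+ mice and the 5 Trpm7 cKO libraries from Trpm7 flox/flox; Pax7 CreERT2/+ mice, and both carried a Rosa26 YFP reporter. All animals of the study were adults of 7 to 20 weeks on a C57BL6 background, and both genotypes carried the same Cre and received tamoxifen on 5 consecutive days. The Cre acts in cells that express Pax7, so that Trpm7, a channel for Mg2+ and other divalent ions, is deleted in MuSCs and their progeny and not in the myofibers already present. Each library was made from 3000 sorted cells, and the sources used here do not state how many animals gave them.

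In embryonic and regenerating muscle the receptor is a ring of subunits encoded by Chrna1 (α), Chrnb1 (β), Chrnd (δ) and Chrng (γ), and Chrng is later replaced by Chrne (ε) at mature synapses. Agrin released by the nerve binds Lrp4 on the muscle surface, which switches on the receptor kinase MuSK; Dok7 binds MuSK inside the cell and sustains its activity, and rapsyn, encoded by Rapsn, packs receptors into clusters. Before innervation, muscle cells that leave the cell cycle and begin to differentiate switch on receptor genes along the whole cell, and the factors MyoD and myogenin are known to act through E boxes, short DNA motifs near the start of these genes.

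The promoters show where such letters lie. RefSeq windows of GRCm38.p6, running from 250 bases before to 50 bases after a start site, were found for 5 of the 8 genes, and the E box CANNTG, its form CAGCTG and the N box CCGGAA were searched in them on both strands, every CAGCTG being also a CANNTG. The stretches below show every CAGCTG found in the windows of Chrna1, Chrng and Musk. For Chrnb1 and Dok7, whose windows held none, they show E boxes of other letters. Chrna1, Chrng and Dok7 fell in Trpm7 cKO cells, and Chrnb1 did not after scaling. Whether these letters bear on that difference was not tested. The sites were picked by their letters, not every E box is shown, and the capitals mark the E box:
Chrna1, 92 bases before the start, chr2:73580413-73580442, minus strand: ctgtgggcagctCAGCTGtcatgcgggcac
Chrna1, 44 bases before the start, chr2:73580365-73580394, minus strand: tagctgtggagtCAGCTGgcttccaaggcc
Chrng, 155 bases before the start, chr1:87205644-87205673, plus strand: atatcctgggaaCAGCTGacaatgcagtgg
Chrng, 132 bases before the start, chr1:87205667-87205696, plus strand: gcagtggtcagaCAGCTGgtggggccagct
Musk, 68 bases before the start, chr4:58285882-58285911, plus strand: gtgagttctcccCAGCTGgccacgtccatc
Chrnb1, 96 bases before the start, chr11:69796016-69796045, minus strand: ggagggcgactgCAGTTGctccgggcggga
Chrnb1, 29 bases before the start, chr11:69795949-69795978, minus strand: gtcccccgacaaCAGGTGcacattcctggg
Dok7, 149 bases before the start, chr5:35056605-35056634, plus strand: cagaggctgcttCAGATGgtcttaagcagt

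The window of Chrng follows a RefSeq start that lies inside the gene as GENCODE places it, downstream of the GENCODE start given below, so that its positions count from the RefSeq start only. The windows of Chrna1 and Chrng each held 2 copies of CAGCTG, a number reached by 1.9% of the 32851 windows of all genes, while 16.3% of the windows held at least 1. Musk held 1 copy, and Chrnb1 and Dok7 held none, although Chrnb1 had 3 E boxes of other letters and Dok7 had 1. CANNTG is common and was found in 72.3% of all windows. The N box, known from genes transcribed under the synapse, was in 14.9% of all windows and in none of those of the 5 genes. The window of Chrne, the adult subunit, held 1 CAGCTG and 1 N box. These matches describe letters within the windows and do not show binding.

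The genes lie apart from each other except for Chrnd and Chrng, which follow each other on the plus strand of chromosome 1 with 4586 bases between them, at 87190607 to 87200070 and 87204657 to 87212694 in the GENCODE annotation of GRCm38. Chrna1 lies at chr2:73563215-73580338 and Chrnb1 at chr11:69784036-69795943, both on the minus strand. The other genes are on the plus strand, Musk at chr4:58285960-58374303, Dok7 at chr5:35056766-35087839, Rapsn at chr2:91035620-91045729 and Lrp4 at chr2:91457511-91513779. The protocol counts the 3′ end of transcripts, and where the reads lay within them was not examined. Of the last 500 transcript bases of Chrnd, 10.4% also occurred in transcripts of other genes, and no such bases were found in the other 7. The 3′ end of Rapsn is overlapped on the opposite strand by Gm13778, which had 2 counts in control and 0 in Trpm7 cKO libraries.

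Each count is 1 tagged molecule, whatever the length of its transcript, so that levels of different genes may be compared without division by length. Control libraries held 914361 to 1097709 counts and Trpm7 cKO libraries 205986 to 581121. A single count was worth 0.957 to 1.12 CPM, counts scaled to library size by TMM factors, in control and 1.60 to 5.16 CPM in Trpm7 cKO libraries, and log2 fold changes over all genes had a median of -0.01. MuSC markers were present in every library, Pax7 with 167 to 224 counts in control and 101 to 296 in Trpm7 cKO libraries, and Cdh15 with 182 to 229 and 54 to 155. Transcripts of other cell types were counted too. All 17 leukocyte markers tested rose in Trpm7 cKO libraries, beside 24.5% of all tested genes. Several of them, such as Cd68 with 2 to 10 counts in control, entered the test only through their Trpm7 cKO counts, which favoured a rise. Their whole list of 20 summed to 376 to 647 CPM in control and 1390 to 6228 CPM in Trpm7 cKO libraries. The 10 endothelial markers summed to 7.21 to 75.3 and 144 to 686 CPM. None of these markers was at 0 throughout, and Ptprc, which encodes CD45, had 4 to 15 counts in control and 10 to 59 in Trpm7 cKO libraries. The study stained CD45, CD31 and Sca-1 when sorting MuSCs from uninjured muscle. For the cells of these libraries its supplement describes sorting of YFP-positive MuSCs, checked by detection of MyoD. Whether CD45, CD31 and Sca-1 were also stained in the injured muscle is not stated in the sources used here. Mitochondrial genes took 12.04% to 16.5% of the counts in control and 8.82% to 10.6% in Trpm7 cKO libraries, and the part of this difference in the results below was not tested. The targeted gene cannot be checked here, because counts at the 3′ end do not show whether the floxed part was removed.

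Receptor and postsynaptic transcripts fell unevenly in Trpm7 cKO MuSCs. Chrna1, Chrnd, Chrng and Dok7 fell steeply, with log2 fold changes from -2.61 to -4.17, whereas Chrnb1 and Rapsn overlapped between the genotypes in normalized level and did not pass the test. Lrp4 and Musk had at most 14 counts in any library. In the quasi-likelihood test of edgeR, with p-values adjusted over all genes by the Benjamini-Hochberg method, 4 of the 6 genes tested were lower at an adjusted p below 0.05, where 24.2% of all tested genes were. The same 4 were also beyond a log2 fold change of 1.5, as were 3.53% of all genes, and in all 4 the lowest control library was above the highest Trpm7 cKO library, as in 17.9% of all genes. None of the 6 was higher, against 24.5% of all genes. These shares depend on scaling. With libraries scaled on MuSC markers, 2253 of the 7753 genes were lower and 1219 higher, with the same count of 4 among the 6. With counts taken per 3000 sorted cells, 5162 were lower and 380 higher, with all 6 lower. That setting leaves counts unscaled, so that differences in capture and sequencing depth enter it, and it does not measure RNA per cell. Chrnd, Chrng and Dok7 entered the test only through their control counts, so that these shares describe the genes and do not test them as a group. In bulk samples, fewer cells that express a gene and less RNA of it per cell cannot be told apart.

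**Figure D1:**
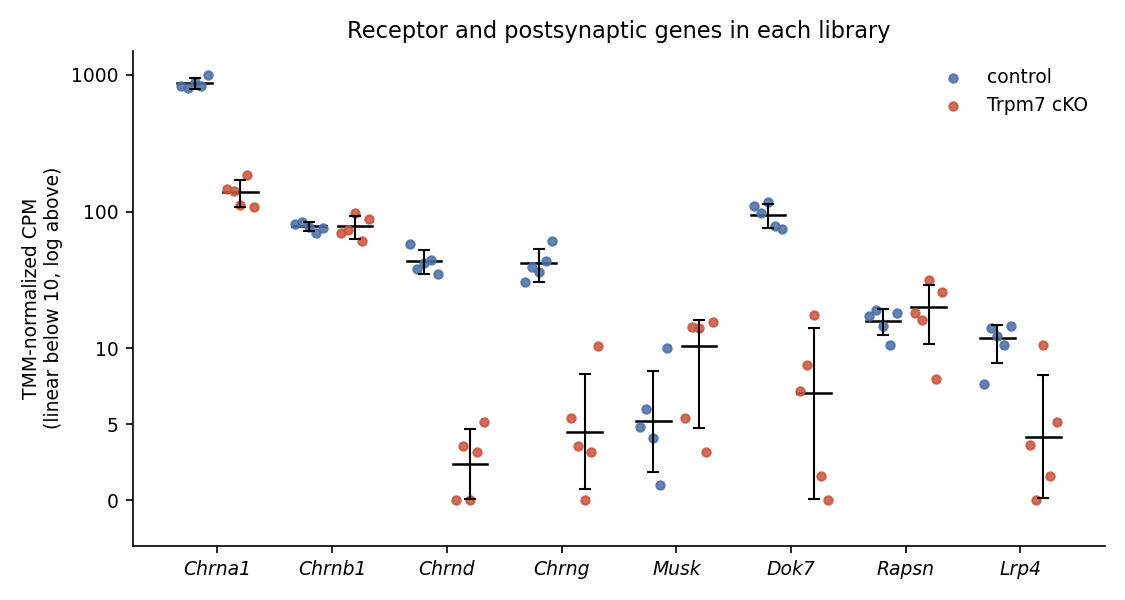
TMM-normalized CPM (vertical axis, linear below 10 and logarithmic above) of the 8 genes in each of the 5 control and 5 Trpm7 cKO libraries, with horizontal lines at the means and bars of 1 SD. The groups are separate for Chrna1, Chrnd, Chrng and Dok7 and overlap for Chrnb1, Musk, Rapsn and Lrp4.

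Chrna1 encodes the α subunit, which carries most of the acetylcholine binding site. Control libraries 1 to 5 held 868, 797, 864, 866 and 892 Chrna1 counts and Trpm7 cKO libraries 1 to 5 held 81, 80, 32, 116 and 21. After scaling, the level was 871 ± 80.2 CPM in control and 139 ± 31.1 CPM in Trpm7 cKO libraries (SD, n = 5 each). The lowest control library, at 799 CPM, stood far above the highest Trpm7 cKO library, at 186 CPM, and Trpm7 cKO replicate 4 was the highest of its group. The log2 fold change was -2.61 (SE 0.16, 95% interval -2.94 to -2.28, adjusted p = 2.52e-10, edgeR). Chrna1 was nonetheless the most abundant of the 8 genes in both genotypes.

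Chrnd and Chrng, neighbours on chromosome 1, encode the δ and γ subunits, which pair with the α subunits to complete the binding sites. Chrnd had 60, 38, 41, 46 and 31 counts in control libraries 1 to 5 and 0, 2, 0, 2 and 1 in Trpm7 cKO libraries 1 to 5. Chrng had 32, 39, 35, 45 and 54 counts in control and 3, 2, 0, 2 and 2 in Trpm7 cKO libraries. Both genes were thus clearly present in every control library and at or below 3 counts in every Trpm7 cKO library. The counts of Trpm7 cKO libraries add up to only 5 molecules of Chrnd and 9 of Chrng, so their folds are best read with counting intervals. Relative to the summed library sizes, Chrnd was at 0.0515 of its control level (exact 95% interval 0.0165 to 0.122) and Chrng at 0.0976 (0.0440 to 0.189), intervals that cover counting error only. The fitted log2 fold changes were -4.17 for Chrnd (SE 0.43, adjusted p = 1.92e-07, edgeR) and -3.31 for Chrng (SE 0.39, adjusted p = 1.08e-06, edgeR), whose intervals of -5.06 to -3.29 and -4.12 to -2.49 overlap.

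Chrnb1 encodes the β subunit, which does not form a binding site and through which the receptor is tied to rapsyn. Control libraries 1 to 5 held 85, 84, 75, 72 and 68 Chrnb1 counts and Trpm7 cKO libraries 39, 41, 28, 38 and 17. After scaling the groups overlapped, at 77.7 ± 5.65 CPM in control and 77.9 ± 14.9 CPM in Trpm7 cKO libraries (SD, n = 5 each). The log2 fold change was -0.05 (SE 0.17, adjusted p = 0.841, edgeR), and its 95% interval of -0.39 to 0.30 leaves room for a small difference in either direction but not for one as large as that of Chrna1. In raw counts, without scaling, every Trpm7 cKO library lay below every control library. Taken per 3000 sorted cells, which leaves depth uncorrected, Chrnb1 was at a log2 fold change of -1.23 (adjusted p = 0.00287, edgeR). The median over all genes was -1.15 on that scale.

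With 3 subunits reduced and the β subunit not, the proportions of receptor transcripts differed between the genotypes, a comparison made after the values were seen. In control libraries the 4 subunits summed to 958 to 1045 counts, of which Chrna1 took 84.2% ± 1.06, Chrnb1 7.56% ± 0.901, Chrnd 4.24% ± 1.01 and Chrng 4.02% ± 0.820 (SD, n = 5). In Trpm7 cKO libraries the sum was 41 to 158 counts, and Chrna1 took 61.6% ± 9.21, Chrnb1 35.3% ± 8.84, Chrnd 1.06% ± 1.06 and Chrng 2.04% ± 1.81 (SD, n = 5). The share of Chrnb1 was 6.51% to 8.77% in control and 24.1% to 46.7% in Trpm7 cKO libraries. The shares of Chrna1, Chrnb1 and Chrnd did not overlap between groups and that of Chrng did. No test is given, because the shares restate the changes of the single genes above and depend on each other within each sum.

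**Figure D2:**
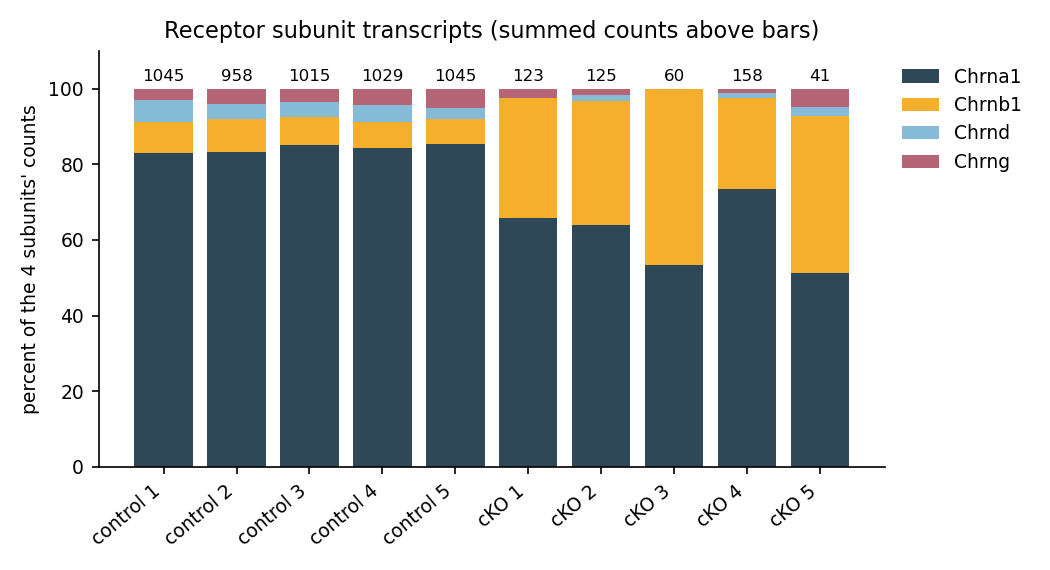
Stacked bars give the percentage of each subunit among the counts of Chrna1, Chrnb1, Chrnd and Chrng in every library, with the summed counts printed above. The Chrnb1 part is 6.51% to 8.77% in control libraries and 24.1% to 46.7% in Trpm7 cKO libraries, whose sums are 41 to 158 counts.

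Chrne, the subunit of mature synapses, had at most 1 count in any control library and 0 in every Trpm7 cKO library. Of 12 other AChR subunit genes listed, Chrne and neuronal subunits such as Chrna7 and Chrnb2, 8 were found in the table and none had more than 2 counts in any library. Counts of Chrng exceeded those of Chrne in every library except Trpm7 cKO replicate 3, where both were at 0.

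Among the genes of MuSK signaling, Dok7 showed the widest separation. Dok7 is the cytoplasmic adaptor that MuSK needs for full activity. Control libraries 1 to 5 held 114, 97, 113, 81 and 66 Dok7 counts and Trpm7 cKO libraries 4, 5, 5, 1 and 0. Normalized levels were 94.97 ± 18.6 CPM in control and 7.04 ± 6.94 CPM in Trpm7 cKO libraries (SD, n = 5 each), and the groups did not overlap. The log2 fold change was -3.77 (SE 0.34, 95% interval -4.48 to -3.06, adjusted p = 4.70e-08, edgeR), resting on 15 molecules in all Trpm7 cKO libraries together, or 0.0708 of the control level (exact 95% interval 0.0393 to 0.118). Dok7 thus went from being the most abundant of the 4 postsynaptic genes in control cells, above Rapsn, to a level below Rapsn in the mean of Trpm7 cKO cells.

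Musk encodes the receptor kinase itself. It had 5, 6, 4, 1 and 9 counts in control and 3, 8, 4, 2 and 3 in Trpm7 cKO libraries, too few for the test across all genes. Normalized levels overlapped, at 5.20 ± 3.32 and 10.5 ± 5.71 CPM (SD, n = 5 each; exact permutation test on log2(CPM + 1), two-sided, p = 0.167), and the pooled level in Trpm7 cKO relative to control cells was 1.78 (exact 95% interval 0.937 to 3.33). A fall like that of Dok7 lies outside this interval, whereas no change and a rise lie within it.

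Lrp4 encodes the agrin receptor. It had 8, 14, 12, 11 and 13 counts in control and 2, 0, 3, 1 and 1 in Trpm7 cKO libraries, also too few for the test across all genes. Levels were 11.8 ± 2.82 CPM in control and 4.17 ± 4.05 CPM in Trpm7 cKO libraries (SD, n = 5 each; exact permutation test on log2(CPM + 1), two-sided, p = 0.0159), and the pooled level relative to control was 0.268 (exact 95% interval 0.103 to 0.589). The groups overlapped through Trpm7 cKO replicate 3, whose 3 counts amount to 10.5 CPM in a small library. When the filter on low counts was dropped, Lrp4 had a log2 fold change with a 95% interval of -3.08 to -0.92 (SE 0.55, adjusted p = 0.00193, edgeR over 21914 genes) and Musk had one of 0.65 (SE 0.51, adjusted p = 0.353).

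Rapsn encodes rapsyn, the scaffold beneath receptor clusters. It had 18, 19, 14, 11 and 16 counts in control and 10, 9, 9, 5 and 5 in Trpm7 cKO libraries. Levels overlapped, at 15.9 ± 3.40 and 19.9 ± 9.10 CPM (SD, n = 5 each). The log2 fold change was 0.15 (SE 0.33, 95% interval -0.53 to 0.83, adjusted p = 0.730, edgeR). Its sign turned under another scaling, under other filters and without the 2 smallest Trpm7 cKO libraries, to between -0.19 and -0.017. Taken per sorted cell, which leaves depth uncorrected, it was -1.03 (adjusted p = 0.0234, edgeR).

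**Figure D3:**
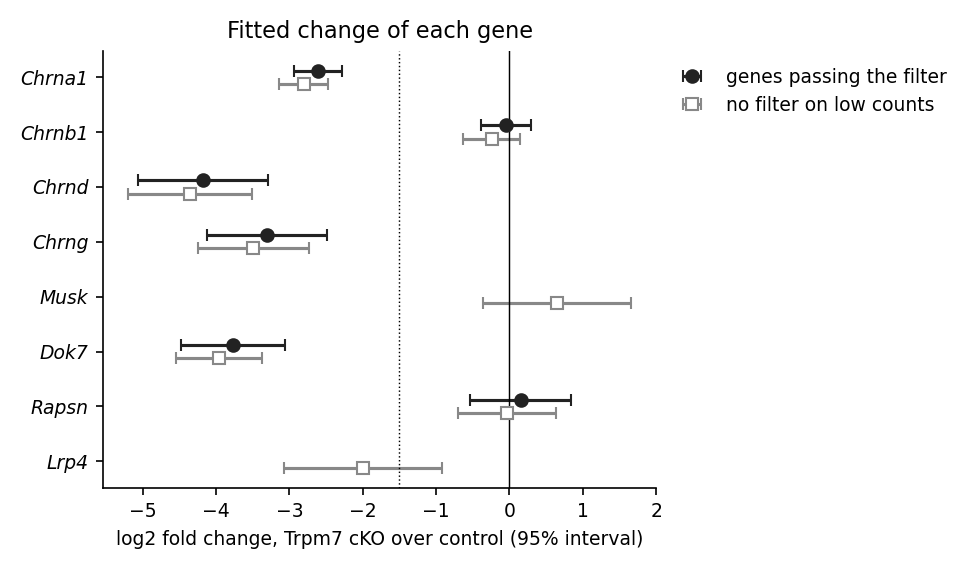
Log2 fold change of Trpm7 cKO over control with 95% intervals from edgeR, for genes that passed the filter on low counts (filled circles) and with no filter (open squares), with a dotted line at -1.5. Intervals of Chrna1, Chrnd, Chrng and Dok7 lie wholly below -2.28, those of Chrnb1, Musk and Rapsn include 0, and Lrp4 has a value only without the filter.

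Ordered by normalized level, control MuSCs had Chrna1 first, followed by Dok7, Chrnb1, Chrnd, Chrng, Rapsn, Lrp4 and Musk. The library ranges of Dok7 and Chrnb1 overlapped, as did those of Chrnd and Chrng, of Rapsn and Lrp4, and of Lrp4 and Musk. In Trpm7 cKO cells Chrna1 remained first, Chrnb1 was second, and the others followed, each overlapping with the next in order, at mean levels of 19.9 CPM for Rapsn down to 2.38 CPM for Chrnd. The ranges of Chrna1 and Chrnb1, at 108 to 186 and 60.8 to 98.1 CPM, stayed apart.

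Because depth differed between the genotypes, counts were also drawn at random down to the same total of 205980 per library. At that depth control libraries held 146 to 198 Chrna1 counts and Trpm7 cKO libraries 21 to 42. Dok7 had 9 to 22 against 0 to 3 counts, Chrnd 8 to 11 against 0 to 1, and Chrng 3 to 16 against 0 to 2. The groups stayed apart for these 4 genes, although only Chrna1 and Chrnb1 then had enough counts for the test, in which Chrna1 fell by 2.50 on the log2 scale. Chrnb1, with 17 to 22 against 11 to 17 counts, and Rapsn, with 2 to 7 against 3 to 6, overlapped.

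Myogenin marks cells that enter differentiation, and Myog itself fell by 2.004 on the log2 scale (SE 0.17, adjusted p = 2.46e-08, edgeR), with 458 to 544 counts in control and 21 to 85 in Trpm7 cKO libraries. The genes were therefore compared with Myog inside each library, as log2 ratios of counts plus 0.5, which do not depend on scaling. Exact permutation tests were two-sided and their p-values are unadjusted over the 8 genes compared. Per 100 Myog counts, pooled Chrna1 was 178 in control and 125 in Trpm7 cKO libraries, a difference in mean log2 ratio of -0.64 with overlapping groups (exact permutation p = 0.0873). Most of the spread was in Trpm7 cKO libraries, from 65.3 in replicate 3 to 204 in replicate 4, against 159 to 195 in control libraries, and without replicate 4 the difference was -0.85 (exact permutation p = 0.00794). Leaving out any other library gave -0.75 to -0.44, with exact permutation p from 0.0556 to 0.127, the smallest difference being without Trpm7 cKO replicate 3. Per Myod1 count, a ratio computed after the values were seen, Chrna1 was lower in every Trpm7 cKO library, with a difference of -0.62 (exact permutation p = 0.00794).

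Relative to Myog, the other genes separated into those that were lower still and those that were higher. Dok7 was 14.4 to 24.1 per 100 Myog counts in control and 0 to 10.2 in Trpm7 cKO libraries (difference in log2 ratio -1.89, exact permutation p = 0.00794). Chrnd showed a like difference of -1.86 (exact permutation p = 0.0159). For Chrng the difference was -1.09 (exact permutation p = 0.0873), -1.48 without Trpm7 cKO replicate 5 (exact permutation p = 0.00794), -0.59 without replicate 3 (exact permutation p = 0.183) and -0.73 with 1 added to the counts in place of 0.5 (exact permutation p = 0.198). In the opposite direction, Chrnb1 was 13.2 to 18.3 per 100 Myog counts in control and 48.2 to 80.95 in Trpm7 cKO libraries, higher by 2.02 on the log2 scale. Rapsn was 2.02 to 4.13 and 8.77 to 23.8, higher by 2.28, and Musk 0.184 to 1.97 and 3.51 to 14.3, higher by 3.11. These last 3 genes were above control in every Trpm7 cKO library (exact permutation p = 0.00794 for each). For Chrnb1 and Rapsn, whose normalized levels did not pass the test, these differences are about the size of the fall of Myog in the denominator. The ratio of Musk takes in the same fall. It rests on 1 to 9 Musk counts in control and 2 to 8 in Trpm7 cKO libraries, whose normalized levels overlapped. Lrp4 differed by 0.39, with overlap (exact permutation p = 0.627).

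Against the summed counts of 15 MuSC markers, the picture followed the normalized levels. Differences in log2 ratio were -2.91 for Chrna1, -4.14 for Chrnd, -3.37 for Chrng and -4.17 for Dok7, without overlap (exact permutation p = 0.00794 for each). Chrnb1 differed by -0.25 (exact permutation p = 0.19), Rapsn by 0.01 (0.968) and Musk by 0.84 (0.23), all with overlap. Lrp4 differed by -1.88 (exact permutation p = 0.0159), again with overlap. None of the listed leukocyte and endothelial markers enters either ratio, but whether other cells added to the counts of the MuSC markers was not tested. The MuSC markers also differed between the genotypes, with a median log2 fold change of 0.72. Of 13 tested, 6 were higher and 3 lower, beside 24.5% higher and 24.2% lower over all genes. The part of leukocytes and endothelium in the differences of normalized level was not tested.

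**Figure D4:**
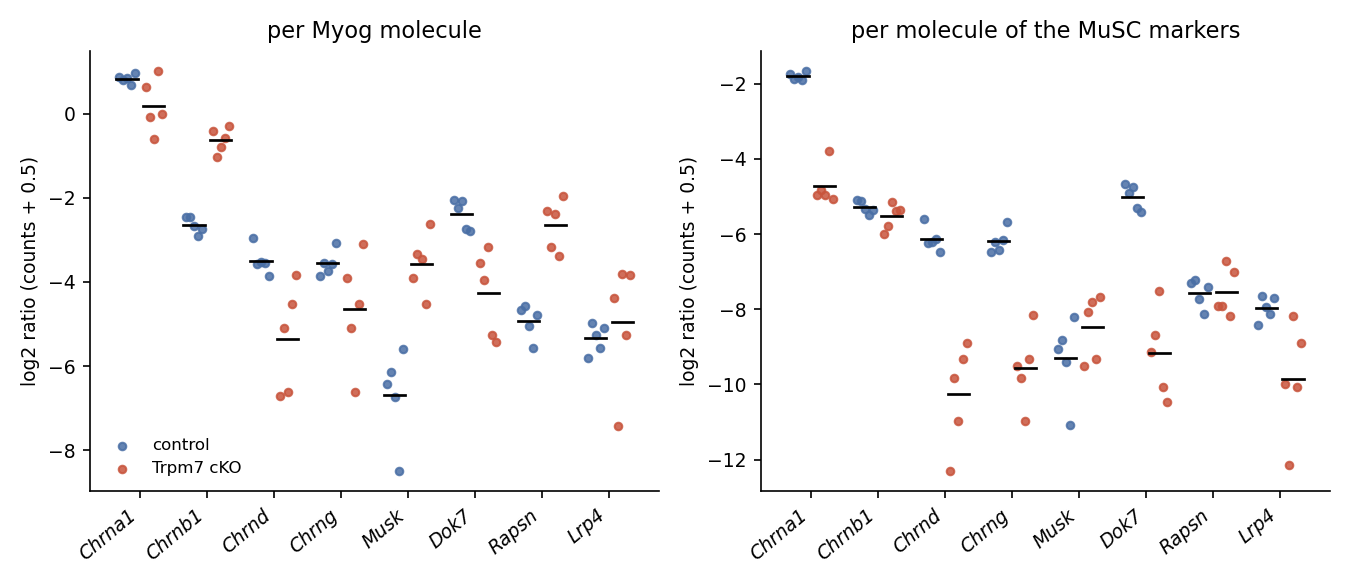
Log2 ratio of each gene's counts (plus 0.5) to Myog counts (left) and to the summed counts of the MuSC markers (right) in every library, with lines at group means. Relative to Myog, Chrnb1, Musk and Rapsn are above control in all Trpm7 cKO libraries and Dok7 is below, while relative to MuSC markers Chrna1, Chrnd, Chrng and Dok7 are below control.

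Among 18 tested partners of agrin and MuSK outside the 8 genes, 8 were lower, 0 higher and 10 did not pass the test, where 24.2% of all genes were lower and 24.5% higher, with a median log2 fold change of -0.20 beside -0.01 over all genes. The lowest were Dvl3, a Dishevelled protein that binds MuSK, at -1.25 (adjusted p = 0.000137, edgeR), and the tyrosine kinases Abl1 at -1.19 (adjusted p = 5.00e-05, edgeR) and Abl2 at -0.87 (adjusted p = 0.000297, edgeR). Several of these genes also serve the cytoskeleton of all cells, among them Pak1, Rac1 and Cdc42, which fell by 0.75, 0.49 and 0.60 on the log2 scale. Agrn, which encodes agrin, had 3 to 9 counts in control and 2 to 10 in Trpm7 cKO libraries and was not tested. None of the 18 fell as far as Chrna1.

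Genes of the synaptic matrix, the dystrophin scaffold and the nerve-derived signal numbered 3 lower, 4 higher and 7 not passing the test among 14, shares near the 24.2% lower and 24.5% higher of all genes, with a median of 0.25. Dtna, which encodes the scaffold protein α-dystrobrevin, was at -1.11 (adjusted p = 0.0125, edgeR). Gabpa, which encodes the Ets factor that binds N boxes, was at -0.75 (adjusted p = 0.0191, edgeR), and Prkar1a, a regulatory subunit of protein kinase A, at -0.54 (adjusted p = 0.00438, edgeR). Higher were Sntb2, a syntrophin, at 1.64 (adjusted p = 1.64e-06, edgeR), Lamb2, the laminin chain of the synaptic basal lamina, at 1.502 (adjusted p = 0.000416, edgeR) and Nrg1, which encodes neuregulin, at 1.03 (adjusted p = 0.0142, edgeR). Lamb2 and Nrg1 are also made by non-muscle cells, whose markers were higher in Trpm7 cKO libraries, and the part of such cells was not tested. Ache, which encodes acetylcholinesterase, had at most 2 counts in any library.

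Assembly and glycosylation of the receptor were represented by 9 tested genes, 3 lower and 6 not passing the test, beside 24.2% lower over all genes, with a median of -0.32. Tmem35a, which encodes a chaperone known from neuronal acetylcholine receptors, had 16 to 26 counts in control and 1 to 4 in Trpm7 cKO libraries. It was at -1.96 on the log2 scale (adjusted p = 0.000185, edgeR) and entered the test only through its control counts, which favoured a fall. Alg2, a mannosyltransferase of N-glycan synthesis, was at -1.20 (adjusted p = 0.000122, edgeR), and Hspa5, a general chaperone of the endoplasmic reticulum, at -0.41 (adjusted p = 0.0329, edgeR). Rer1 and Gfpt1, known for receptor assembly and for making sugar precursors, were at 0.02 and 0.01 and did not pass the test.

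Transcription factors known to act on receptor genes changed in both directions. Of 18 tested, 10 were lower, 7 higher and 1 did not pass the test, beside 24.2% lower and 24.5% higher over all genes, with a median of -0.60. The myogenic factors Myod1 at -2.01 (adjusted p = 1.50e-08, edgeR) and Myog, and Mef2d at -1.97 (adjusted p = 3.86e-07, edgeR), a factor that works with them, were the lowest. Their E protein partners Tcf12 and Tcf3 were at -1.42 and -0.57. Hdac4, a deacetylase known to link nerve activity to receptor transcription, had 23 to 30 counts in control and 31 to 73 in the smaller Trpm7 cKO libraries, and its log2 fold change was 1.98 (adjusted p = 2.04e-06, edgeR). Mef2c was at 1.39 (adjusted p = 0.00564, edgeR) and Snai1, a repressor that competes for E boxes, at 1.09 (adjusted p = 0.00851, edgeR). Normalized levels of both overlapped between the genotypes. Mef2c had 7 to 18 counts in control and 4 to 43 in Trpm7 cKO libraries, and Snai1 9 to 14 and 8 to 16. The part of non-muscle cells, whose markers were higher in Trpm7 cKO libraries, in these rises was not tested. Myf5, another myogenic factor, was also higher, at 0.81 (adjusted p = 0.0406, edgeR). Its normalized levels overlapped too, from 106 to 164 counts in control and 21 to 242 in Trpm7 cKO libraries.

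**Figure D5:**
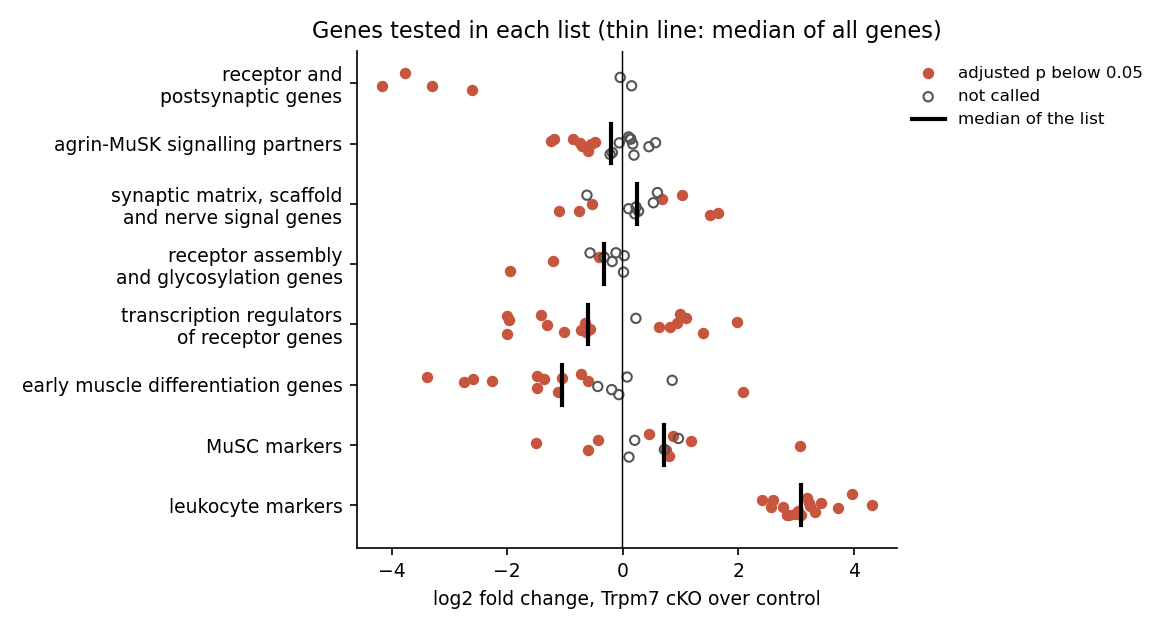
Log2 fold change (horizontal axis) of each tested gene of the 8 and of 7 other lists, filled where the adjusted p was below 0.05, with thick lines at the medians of the other lists and a thin line at the median of all genes, -0.01. Chrna1, Chrnd, Chrng and Dok7 lie to the left of every agrin and MuSK partner, and all 17 tested leukocyte markers lie to the right of 2.

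Of 17 other genes of early muscle differentiation tested, 11 were lower, 1 higher and 5 did not pass the test, beside 24.2% lower and 24.5% higher over all genes, with a median of -1.05. The lowest were Ttn, encoding titin, at -3.38 (adjusted p = 1.52e-10, edgeR), the fast light chain gene Mylpf at -2.75 (adjusted p = 3.65e-06, edgeR) and the troponin gene Tnnt2 at -2.60 (adjusted p = 7.09e-08, edgeR), a range that takes in Chrna1. The slow troponin gene Tnni1 was at 2.08 (adjusted p = 0.000198, edgeR) from 2 to 10 and 3 to 23 counts. It entered the test only through its Trpm7 cKO counts, which favoured a rise. Of 13 MuSC markers tested, 3 were lower, 6 higher and 4 did not pass the test, with a median of 0.72 and against the same shares. Among them Pax7 was at 1.18 (adjusted p = 2.20e-05, edgeR), Fgfr4 at 0.88 (adjusted p = 0.00700, edgeR) and Chrdl2 at 3.07 (adjusted p = 2.04e-05, edgeR), while Met was at -1.49, Itga7 at -0.60 and Peg3 at -0.43. Chrdl2 had 2 to 6 counts in control and 4 to 18 in Trpm7 cKO libraries. It too entered the test only through its Trpm7 cKO counts, which favoured a rise.

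Across the 10 libraries, the genes whose profile lay closest to the mean profile of the 6 tested genes were Sox11, Myog, D030056L22Rik, Bex1 and E2f2. The measure was the root mean square difference of centered log2 CPM, which was 0.20, 0.23, 0.23, 0.24 and 0.25, beside a median of 1.05 over all other tested genes. Their log2 fold changes of -1.87 to -2.49 lie between those of Chrnb1 and Rapsn and those of Chrnd and Dok7. The mean profile does not resemble every gene in it, Chrna1 lying at 0.42 from it and Rapsn at 1.17. Libraries of both genotypes enter this measure, so that it mostly reflects the difference between them.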

How the data were processed

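RNA-seq counts of 5 control and 5 Trpm7 cKO libraries were analysed, grouped by the genotype in the sample labels. The authors deposited molecule counts per gene, as whole numbers and not normalized. Per the labels and the methods of the study, CEL-Seq2 libraries were processed with UMI-tools 1.1.4, Trim Galore 0.6.10, HISAT2 2.2.1 on GRCm38 and featureCounts 2.0.6; annotation release and strand setting are not given in the sources used here. Of 24620 entries, 12 repeated a symbol, and the one with the larger total was kept. Genes were filtered with filterByExpr (minimum count 10, minimum total 15), scaled by TMM and tested in edgeR 4.0.16 (R 4.3.3) with a robust quasi-likelihood F test, genotype as the only term and Benjamini-Hochberg adjustment over 7753 genes. Intervals are at 95%. The script was tested on simulated data. Single values were compared by exact, two-sided permutation tests, in which 0.00794 is the smallest possible p. No source states that libraries came from separate animals, so p-values measure only the spread between these libraries, and intervals on counts cover counting error only. The library names of Trpm7 cKO replicates 4 and 5 share a number whose meaning is not stated; no library matched another of its genotype within counting noise, and all were kept.

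The 8 genes, the lists and the tests were chosen with earlier results of these data known. Named genes are the 8, Myog, Myod1 and Chrne, the up to 3 lowest and 3 highest called genes of each list, and the 5 nearest profiles; other genes named were chosen after their values were seen. Alternatives were DESeq2 1.42.0, limma-voom (limma 3.58.1), RLE factors, total counts, scaling on MuSC markers or sorted cells, other filters, thinned counts, the replicate number as a block, each library left out and a pseudocount of 1 for ratios. Values per sorted cell compare unscaled counts, so that differences in capture and sequencing depth enter them. Same-numbered libraries of both genotypes had correlations of their deviations from the group means between -0.12 and 0.18. Positions came from GENCODE M21 and promoters from RefSeq.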

Additional observations from a re-analysis of the deposited data

Results flagged for a closer look

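One value stood apart from the other libraries of its group. The log2 ratio of Chrna1 to the summed MuSC markers was -3.78 in Trpm7 cKO replicate 4 and between -5.05 and -4.82 in the other 4 Trpm7 cKO libraries, against -1.90 to -1.65 in control libraries. Without replicate 4 the difference between genotypes was -3.15, and with it -2.91. Among 56 groups of values checked in this way, this was the only one to stand apart, and chance alone gives such a value in about 1 group in 20.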

How the results depend on the processing

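Of the values recomputed under the alternatives, 361 kept their direction and side of the threshold or, for counts, stayed within 1.5 times, 12 turned in direction, 3 newly passed the threshold and 3 counts moved further. Called genes numbered 3771, 1778 with thinned counts, 927 with the added fold threshold of 1.5, and 3400 to 4093 with each library left out. Of the receptor and postsynaptic genes 4 were lower, as in each fit without 1 library, 1 with thinned counts, where only 2 could be tested, and 6 per sorted cell, where 5542 genes were called. Log2 fold changes with each library left out were -2.75 to -2.55 for Chrna1, -4.47 to -3.79 for Chrnd, -3.54 to -3.11 for Chrng and -4.17 to -3.42 for Dok7, past the threshold in all. Lrp4 was also lower with DESeq2, with no filter, with the filter of 1 CPM in 5 libraries and, chosen after seeing the data, without the 2 smallest Trpm7 cKO libraries. Chrnb1 turned to 0.020 with total counts alone and ranged from -0.14 to 0.027 with each library left out, and became -1.23 per sorted cell. Rapsn turned to -0.11 when scaled on MuSC markers, -0.034 with no filter, -0.017 with 1 CPM in 5 libraries, -0.19 without the 2 smallest libraries and -1.03 per sorted cell, and ranged from -0.052 to 0.40 with each library left out. Its ratio to the MuSC markers ranged from -0.20 to 0.17, those of Chrna1 and Chrng to Myog from -0.85 to -0.44 and from -1.48 to -0.59, and with a pseudocount of 1 that of Chrng was -0.73 and that of Chrnd -1.31, the latter still past the threshold. The cause of these changes was not tested. Scaling moved the median of all genes to -0.25 with MuSC markers and -1.15 per sorted cell. The replicate numbers did not pair libraries, and with the number as a block 3568 genes were called, with 4 of the receptor and postsynaptic genes lower.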

Other observations

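Genes of mature myofibers and of nerve were low. Of 10 myofiber genes listed 9 were found, and these summed to 90.9 to 118 CPM in control and 52.6 to 93.6 CPM in Trpm7 cKO libraries. Myh7 was at 0 in every library. Of 3 tested, 1 was lower and 2 did not pass the test, beside 24.2% lower over all genes. Actn3, a Z-disc gene of fast fibers, was at -2.27 (adjusted p = 2.86e-06, edgeR), Tnni2 at -0.56 and Pygm at 0.42. The fast fiber genes Myh4 and Pvalb, too low to test, averaged 1.17 and 1.18 CPM in control and 9.99 and 8.29 CPM in Trpm7 cKO libraries. Both overlapped between the genotypes, from 0 to 3 and 0 to 2 counts in control and 1 to 7 and 0 to 6 in Trpm7 cKO libraries. Atp2a1 and Myh1, also too low to test, went the other way. They averaged 5.20 and 0.412 CPM in control and 2.74 and 0 CPM in Trpm7 cKO libraries. Of the Schwann cell and neuron genes 1 was tested, Tubb3, a neuronal tubulin also made by differentiating muscle cells, at -2.48 (adjusted p = 1.14e-05, edgeR). Of 12 Schwann cell and neuron genes listed 9 were found. These summed to 42.2 to 74.6 CPM in control and 15.97 to 160.0 CPM in Trpm7 cKO libraries, with Snap25 at 0 in every library. Fibroblast genes were higher in 5 and lower in 1 of 7 tested, beside 24.5% higher and 24.2% lower over all genes. Dpt was at 4.002 (adjusted p = 4.13e-09, edgeR), Col1a1 at 2.21 (adjusted p = 1.13e-06, edgeR) and Col1a2 at -0.70 (adjusted p = 0.00682, edgeR). Dpt, with 8 to 11 counts in control, entered the test only through its Trpm7 cKO counts.

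Closest to Chrna1 alone in profile, in a comparison added after the values were seen, were Dclk1 at 0.21, Rbm24 and Eno3 at 0.27, and Pip4p2 and Srgap3 at 0.28 (root mean square difference of centered log2 CPM over 10 libraries), with log2 fold changes from -2.29 to -3.34.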
